A study of Mus musculus with 12 samples.

Results

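Muscle stores glucose as glycogen, and 9 genes of the enzymes that break it down or build it were followed in *Cox6a2*-/- and WT muscle: *Phka1*, *Phkb* and *Phkg1* (subunits of phosphorylase kinase), *Pygm*, *Pgm1*, *Ugp2*, *Gys1*, *Gbe1* and *Ppp1r3a*. They were taken by symbol from the 19938 genes that had a probe set with a single gene symbol on mouse Gene 1.0 ST arrays, whose probes cover each transcript from end to end. Each of the 9 had exactly 1 such probe set, so that no choice between probe sets was needed. *Cox6a2*-/- mice lack the heart and muscle form of a subunit of cytochrome *c* oxidase, the last complex of the respiratory chain, and the study asked how this loss changes gene expression in muscle. The 4 groups of 3 arrays were *Cox6a2*-/- (KO) diaphragm, WT diaphragm, KO gastrocnemius and WT gastrocnemius. All mice were male, 10 to 12 weeks old and of strain C57Bl6 per the labels, and the methods give a regular diet as the default. No tissue restriction of the deletion is described, and the WT mice were C57BL/6J animals from a commercial breeder, not littermates, so that the deletion and any difference between the colonies cannot be told apart. The labels call the 3 samples of a group biological replicates without saying whether each came from a single mouse, and p-values measure the spread between these samples.

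In resting muscle glycogen is a branched polymer of glucose. Calcium released when the fibre contracts, and separately the cAMP-dependent protein kinase, switch on phosphorylase kinase. This kinase phosphorylates and activates glycogen phosphorylase. The phosphorylase releases glucose 1-phosphate, and phosphoglucomutase turns it into the glucose 6-phosphate used in glycolysis. Synthesis runs the other way through UDP-glucose, glycogen synthase and the branching enzyme, and a protein phosphatase held on the glycogen particle by a targeting subunit reverses the phosphorylations. Fast glycolytic fibres are known for relying on glycogen during short, intense work.

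Values are log2 signals, so that a difference of 1 is a doubling. A gene was called where limma gave a Benjamini-Hochberg adjusted p under 0.05 over all 19938 genes, and precision is limited by the 3 arrays of a group. *Cox6a2* itself had log2 signals of 6.71 to 7.02 in KO diaphragm, 11.75 to 12.06 on the arrays labelled WT diaphragm, 6.71 to 7.18 in KO gastrocnemius and 11.65 to 11.84 in WT gastrocnemius. The arrays labelled WT diaphragm stood apart from what their label says. Genes of hindlimb position (10 genes, Hox genes among them) averaged 5.39 to 5.57 per array in KO diaphragm, 6.68 to 6.87 on the arrays labelled WT diaphragm and 6.70 to 6.80 in gastrocnemius of both genotypes. Markers of the mesothelium, the cell layer that covers the diaphragm (8 genes), averaged 7.78 to 8.60 in KO diaphragm, 5.29 to 5.34 on the arrays labelled WT diaphragm and 5.19 to 5.55 in gastrocnemius. For both lists the arrays labelled WT diaphragm lay with the gastrocnemius arrays and not with KO diaphragm. Genes of cervical position (6 genes) averaged 6.67 to 6.84 in KO diaphragm, against 6.24 to 6.30 on the arrays labelled WT diaphragm, which lay above the 6.04 to 6.21 of gastrocnemius and nearer to them than to KO diaphragm. These arrays are therefore named by their label throughout, and KO diaphragm is set against them and, without them, against KO gastrocnemius. KO minus WT diaphragm always means against the arrays so labelled, so that genotype and the identity of those arrays cannot be told apart in it. These 2 comparisons share the KO diaphragm arrays, and the second sets 2 muscles of the same genotype against each other.

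The KO diaphragm arrays had lower signals of most of the enzymes. In KO minus WT diaphragm, 6 of the 9 genes were lower and 1 was higher, where 11.2% of all genes were called lower and 16.3% higher. Their median log2 difference was -0.70, and that of all genes was -0.04. In KO diaphragm minus KO gastrocnemius, 7 were lower and 1 was higher, where 11.2% of all genes were called lower and 17.7% higher, with a median of -0.78 for the 9 genes and 0.02 for all genes. In each of these comparisons the arrays of 8 of the 9 genes did not overlap between the groups, which held for 43.1% of all genes in the first and for 44.8% in the second. Fewer fibres of a type and less RNA per fibre cannot be told apart in whole muscle.

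**Figure D1:**
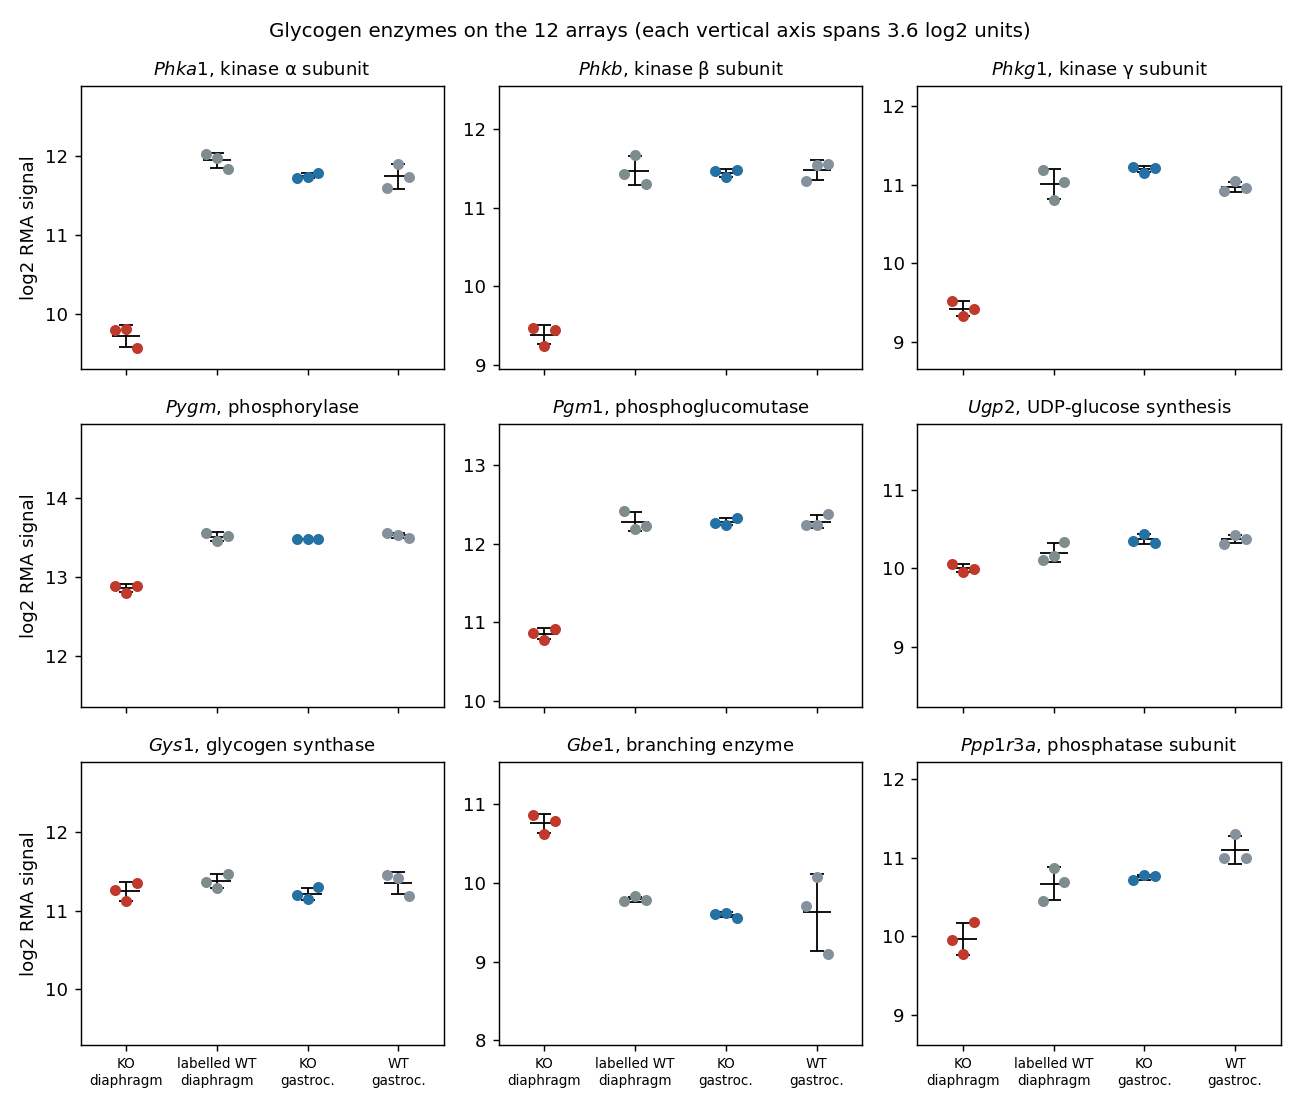
Log2 RMA signal (vertical axis, 3.6 log2 units in every panel) of the 9 glycogen enzymes on each array, by group (horizontal axis); points are arrays, and bars are the mean and SD of 3 arrays. The 3 KO diaphragm arrays of *Phka1*, *Phkb*, *Phkg1* and *Pgm1* lie more than 1 log2 unit below every other array, and those of *Gbe1* lie above all others.

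Phosphorylase kinase showed the largest differences of the set. *Phka1* encodes the muscle form of the regulatory α subunit and lies on the X chromosome. On the 3 arrays of KO diaphragm its log2 signal was 9.79, 9.80 and 9.56, against 12.03, 11.98 and 11.84 on the arrays labelled WT diaphragm, 11.73, 11.74 and 11.79 in KO gastrocnemius, and 11.59, 11.90 and 11.74 in WT gastrocnemius. The 3 KO diaphragm arrays lay well below the other 9 without overlap. *Phka1* was 4.70-fold lower in KO than in WT diaphragm (log2 difference -2.23, SE 0.10, adjusted p = 2.57e-09) and 4.11-fold lower in KO diaphragm than in KO gastrocnemius (-2.04, SE 0.10, adjusted p = 6.02e-09).

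*Phkb*, the gene of the regulatory β subunit, had log2 signals of 9.47, 9.25 and 9.44 in KO diaphragm, against 11.43, 11.67 and 11.31 on the arrays labelled WT diaphragm, 11.47, 11.39 and 11.48 in KO gastrocnemius, and 11.33, 11.54 and 11.56 in WT gastrocnemius. Again KO diaphragm alone was low, while the other 3 groups overlapped. The log2 difference was -2.08 (SE 0.11, adjusted p = 1.03e-08) in KO minus WT diaphragm and -2.06 (SE 0.11, adjusted p = 1.1e-08) in KO diaphragm minus KO gastrocnemius. The β subunit is shared by the muscle and liver forms of the enzyme.

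*Phkg1* encodes the muscle form of the catalytic γ subunit. It gave log2 signals of 9.52, 9.33 and 9.42 in KO diaphragm, against 11.19, 10.80 and 11.03 on the arrays labelled WT diaphragm, 11.22, 11.15 and 11.22 in KO gastrocnemius, and 10.92, 11.04 and 10.96 in WT gastrocnemius. No KO diaphragm array overlapped any other. *Phkg1* was 3.00-fold lower in KO than in WT diaphragm (log2 difference -1.58, SE 0.10, adjusted p = 7.7e-08) and 3.42-fold lower in KO diaphragm than in KO gastrocnemius (-1.77, SE 0.10, adjusted p = 2.52e-08). The δ subunit is calmodulin, made by several genes. Of those with a value, *Calm3* was lower in KO than in WT diaphragm (-0.90, SE 0.09, adjusted p = 6.88e-06). *Calm2*, read by the brighter of its 2 probe sets, was not called (0.05, 95% interval -0.13 to 0.24, adjusted p = 0.686). In KO diaphragm minus KO gastrocnemius, *Calm3* was lower as well (-0.76, SE 0.09, adjusted p = 2.65e-05) and *Calm2* was not called (0.19, 95% interval -0.00 to 0.37, adjusted p = 0.135).

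The genes of the kinase subunits lie on different chromosomes, as do all 9 members. Stretches just upstream of the starts of *Phka1* and *Phkg1* are shown because these subunits had lower signals in KO diaphragm than in the other groups. They come from RefSeq (GRCm38.p6), at chrX:102644302-102644421 (minus strand) and chr5:129879135-129879254 (minus strand), and run 5′ to 3′ on the gene's strand. Capitals mark CANNTG, the E-box, a motif that MyoD and related muscle factors, among many others, can bind.
Phka1: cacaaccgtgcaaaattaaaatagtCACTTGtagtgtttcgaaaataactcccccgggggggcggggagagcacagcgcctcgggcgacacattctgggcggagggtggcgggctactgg
Phkg1: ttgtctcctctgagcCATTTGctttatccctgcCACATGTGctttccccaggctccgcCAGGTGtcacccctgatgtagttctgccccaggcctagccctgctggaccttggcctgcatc
The stretch of *Phkg1* holds 4 matches, of which CACATG and CATGTG overlap, and that of *Phka1* holds 1. Over 300 bases (250 before the start and 50 after it), 9 of 10 promoters of the 9 genes held at least 1 CANNTG on either strand (*Ugp2* has 2 promoters, and that of *Pgm1* held none), as did 72.3% of the 32851 promoters listed. A pattern looser than the MEF2 motif, CTA and TAG with any 4 bases between them, was in the promoters of *Phka1* and *Ppp1r3a* and in 3.69% of all promoters. TATAAA was in those of *Pgm1* and *Ppp1r3a* and in 13.6% of all. These letters are a description of the windows and not sites of binding.

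*Pygm* encodes muscle glycogen phosphorylase, the substrate of the kinase. Its log2 signals were 12.88, 12.80 and 12.89 in KO diaphragm, against 13.56, 13.45 and 13.52 on the arrays labelled WT diaphragm, 13.48, 13.48 and 13.48 in KO gastrocnemius, and 13.56, 13.54 and 13.49 in WT gastrocnemius. The 3 KO diaphragm arrays were the lowest of the 12. The difference was smaller than for the kinase subunits, at -0.66 in KO minus WT diaphragm (SE 0.08, adjusted p = 2.34e-05, 1.57-fold lower) and -0.63 in KO diaphragm minus KO gastrocnemius (SE 0.08, adjusted p = 3.14e-05). The stretch before its start, at chr19:6384288-6384407 (plus strand), is shown for its E-box (capitals) next to the start.
Pygm: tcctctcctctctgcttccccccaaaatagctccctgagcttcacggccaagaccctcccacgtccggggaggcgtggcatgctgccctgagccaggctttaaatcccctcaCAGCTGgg

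*Pgm1* is the gene of the phosphoglucomutase that links glucose 1-phosphate and glucose 6-phosphate (the annotation's Entrez number is that of the gene called *Pgm2* in older mouse annotations). Its log2 signals were 10.86, 10.78 and 10.92 in KO diaphragm, against 12.42, 12.19 and 12.23 on the arrays labelled WT diaphragm, 12.27, 12.24 and 12.33 in KO gastrocnemius, and 12.23, 12.23 and 12.38 in WT gastrocnemius. Here too KO diaphragm lay apart and the other 3 groups overlapped. The log2 difference was -1.43 in KO minus WT diaphragm (SE 0.09, adjusted p = 6.13e-08, 2.69-fold lower) and -1.42 in KO diaphragm minus KO gastrocnemius (SE 0.09, adjusted p = 6.22e-08).

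The enzymes of the synthetic branch did not move together. *Ugp2* encodes UDP-glucose pyrophosphorylase, which makes the sugar donor. This gene had log2 signals of 10.06, 9.96 and 9.99 in KO diaphragm, against 10.11, 10.16 and 10.33 on the arrays labelled WT diaphragm, 10.35, 10.44 and 10.32 in KO gastrocnemius, and 10.32, 10.43 and 10.38 in WT gastrocnemius. The KO diaphragm arrays were the lowest, without overlap. The difference was not called in KO minus WT diaphragm (-0.20, 95% interval -0.39 to -0.01, adjusted p = 0.101) and was called in KO diaphragm minus KO gastrocnemius (-0.37, SE 0.09, adjusted p = 0.005, 1.29-fold lower). With each array centred on its median, *Ugp2* was called in KO minus WT diaphragm too (-0.28, adjusted p = 0.034).

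*Gys1*, the gene of muscle glycogen synthase, had log2 signals of 11.26, 11.12 and 11.36 in KO diaphragm, against 11.36, 11.29 and 11.47 on the arrays labelled WT diaphragm, 11.19, 11.15 and 11.30 in KO gastrocnemius, and 11.46, 11.41 and 11.19 in WT gastrocnemius. All 4 groups overlapped. It was the only member not called in either comparison of KO diaphragm, with -0.13 in KO minus WT diaphragm (95% interval -0.34 to 0.09, adjusted p = 0.369) and 0.03 in KO diaphragm minus KO gastrocnemius (95% interval -0.18 to 0.24, adjusted p = 0.852).

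*Gbe1* encodes the branching enzyme and was the only member with higher signals in KO diaphragm. They were 10.87, 10.63 and 10.78 in KO diaphragm, against 9.77, 9.83 and 9.78 on the arrays labelled WT diaphragm, 9.61, 9.61 and 9.56 in KO gastrocnemius, and 9.71, 10.07 and 9.10 in WT gastrocnemius. Every KO diaphragm array lay above the other 9, and the WT gastrocnemius arrays spread most. *Gbe1* was 1.95-fold higher in KO than in WT diaphragm (log2 difference 0.97, SE 0.17, adjusted p = 0.000764) and 2.24-fold higher than in KO gastrocnemius (1.17, SE 0.17, adjusted p = 0.000148). The stretch upstream of its start, at chr16:70313829-70313948 (plus strand), also holds an E-box (capitals). It is set beside those of the kinase subunits, whose signals were lower in KO diaphragm.
Gbe1: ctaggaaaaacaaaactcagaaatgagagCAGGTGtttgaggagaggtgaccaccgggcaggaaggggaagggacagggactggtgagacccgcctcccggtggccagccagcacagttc

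*Ppp1r3a* encodes the muscle subunit that holds protein phosphatase 1 on glycogen. Its log2 signals were 9.95, 9.78 and 10.18 in KO diaphragm, against 10.45, 10.87 and 10.69 on the arrays labelled WT diaphragm, 10.71, 10.78 and 10.76 in KO gastrocnemius, and 11.0003, 11.2989 and 10.9982 in WT gastrocnemius. KO diaphragm was lowest, WT gastrocnemius was highest, and only KO gastrocnemius and the arrays labelled WT diaphragm overlapped. The log2 difference was -0.70 in KO minus WT diaphragm (SE 0.13, adjusted p = 0.000868, 1.63-fold lower) and -0.78 in KO diaphragm minus KO gastrocnemius (SE 0.13, adjusted p = 0.000334).

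**Figure D2:**
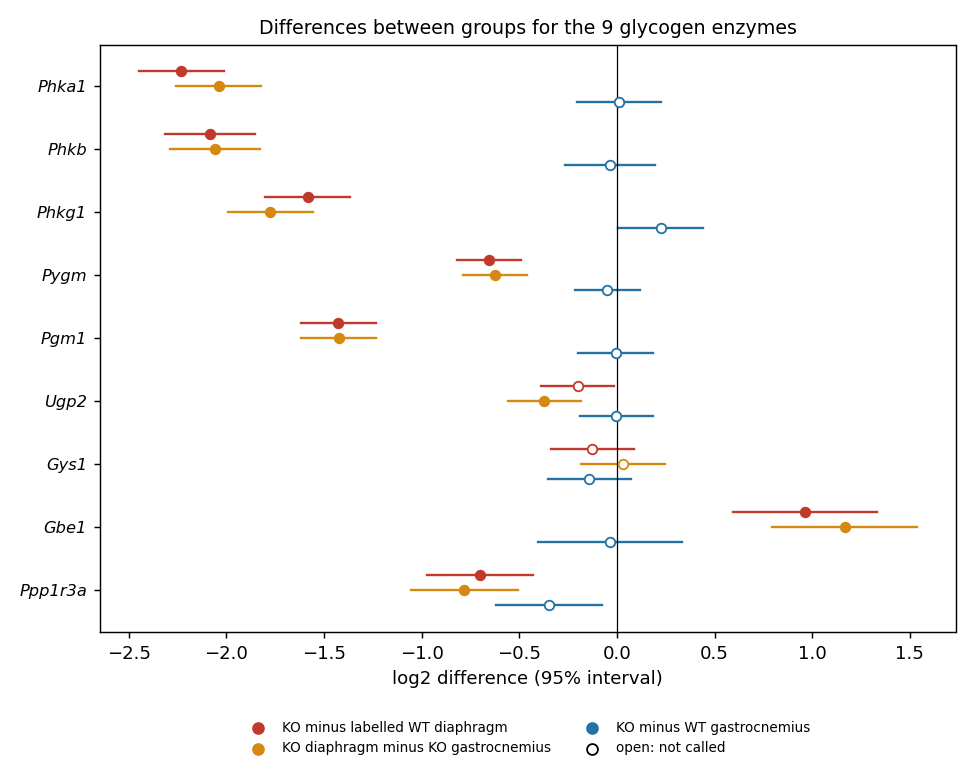
Log2 differences (horizontal axis) with 95% intervals for the 9 enzymes in KO minus labelled WT diaphragm (red), KO diaphragm minus KO gastrocnemius (orange, sharing the KO diaphragm arrays) and KO minus WT gastrocnemius (blue); open points were not called. The red and orange points of *Phka1*, *Phkb*, *Phkg1* and *Pgm1* lie between -2.23 and -1.42, while no blue point was called.

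In gastrocnemius none of the 9 enzymes was called between KO and WT by limma, where 0.592% of all genes were called. At limma's unadjusted p under 0.05 there were 2, a threshold at which the share of all genes is not given here. The methods' t-test gave 2 unadjusted (13.6% of all genes) and 0 after Benjamini-Hochberg adjustment (0% of all genes). The median log2 difference of the 9 was -0.03, against -0.01 for all genes. The 2 were *Ppp1r3a*, at -0.35 (95% interval -0.62 to -0.08, adjusted p = 0.202), and *Phkg1*, at 0.22 (95% interval 0.01 to 0.44, adjusted p = 0.293). *Phka1* had a difference of 0.01 (95% interval -0.21 to 0.23), *Phkb* of -0.04 (95% interval -0.27 to 0.19) and *Pgm1* of -0.00 (95% interval -0.20 to 0.19), intervals that leave out changes as large as those in KO diaphragm. The arrays of *Ppp1r3a*, *Pygm* and *Phkg1* did not overlap between the genotypes, 3 of 9, which held for 23.2% of all genes. An exact permutation test of 3 arrays against 3 cannot give less than 0.1 (two-sided), and this was its value for each member whose arrays did not overlap.

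The test of the difference between the 2 muscles' KO effects called 6 of the 9 enzymes, 5 more negative in diaphragm (6.07% of all genes) and 1 more positive (8.76% of all genes). *Phka1* differed by -2.24 (SE 0.14, adjusted p = 2.91e-07), *Phkb* by -2.05 (SE 0.15, adjusted p = 1.06e-06) and *Phkg1* by -1.81 (SE 0.14, adjusted p = 1.92e-06). *Pgm1* differed by -1.42, *Pygm* by -0.61 and *Gbe1* by 1.00 (adjusted p between 5.57e-06 and 0.0122). *Ppp1r3a* was not called (-0.35, 95% interval -0.74 to 0.03, adjusted p = 0.225), nor were *Ugp2* (-0.20, adjusted p = 0.331) and *Gys1* (0.01, adjusted p = 0.966). Since this test uses the arrays labelled WT diaphragm, genotype and the identity of those arrays cannot be told apart in it, as in KO minus WT diaphragm. Between these arrays and WT gastrocnemius, limma called 0 of the 9 enzymes, where 0.461% of all genes were called. At an unadjusted p under 0.05 limma gave only *Ppp1r3a* (-0.43, adjusted p = 0.165), a threshold whose share of all genes is not given here. The methods' t-test gave 0 after Benjamini-Hochberg adjustment over all genes.

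Several genes of these families exist in more than 1 form. The non-muscle forms of phosphorylase were higher in KO diaphragm, where *Pygm* was lower. Relatives of *Pgm1*, itself lower, went both ways, with *Pgm2* higher and *Pgm2l1* lower. Of *Pygb*, the brain form of phosphorylase, the log2 signals were 7.83, 8.15 and 7.76 in KO diaphragm, against 7.20, 7.08 and 7.21 on the arrays labelled WT diaphragm, 7.12, 7.18 and 7.13 in KO gastrocnemius, and 7.38, 7.26 and 7.41 in WT gastrocnemius. The KO diaphragm arrays were the highest of the 12. *Pygb* was higher by 0.75 in KO minus WT diaphragm (SE 0.10, adjusted p = 9.02e-05) and by 0.77 in KO diaphragm minus KO gastrocnemius (SE 0.10, adjusted p = 6.53e-05). *Pygl*, the liver form, had log2 signals of 7.48, 7.69 and 6.22 in KO diaphragm, against 5.94, 5.94 and 5.75 on the arrays labelled WT diaphragm, 5.84, 5.89 and 5.83 in KO gastrocnemius, and 6.11, 5.98 and 5.90 in WT gastrocnemius. KO diaphragm array 3 was far closer to the other groups than arrays 1 and 2 were. The difference of *Pygl* was 1.25 in KO minus WT diaphragm (SE 0.26, adjusted p = 0.00229) and 1.27 in KO diaphragm minus KO gastrocnemius (SE 0.26, adjusted p = 0.00188), and the methods' t-test did not call it in either (unadjusted p = 0.0543 and 0.0504).

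*Pgm2* encodes a related enzyme that acts mainly on pentose phosphates. For this gene log2 signals were 7.10, 7.25 and 7.25 in KO diaphragm, against 6.65, 6.36 and 6.38 on the arrays labelled WT diaphragm, 6.54, 6.29 and 6.57 in KO gastrocnemius, and 6.34, 6.22 and 6.48 in WT gastrocnemius. The KO diaphragm arrays again did not overlap the others. *Pgm2* was higher by 0.74 in KO minus WT diaphragm (SE 0.11, adjusted p = 0.000188) and by 0.73 in KO diaphragm minus KO gastrocnemius (SE 0.11, adjusted p = 0.000184). *Pgm2l1*, the gene of glucose 1,6-bisphosphate synthase, whose product is a cofactor of phosphoglucomutase, was lower instead, with a log2 difference of -1.31 in KO minus WT diaphragm (adjusted p = 1.08e-05) and -1.34 in KO diaphragm minus KO gastrocnemius (adjusted p = 7.48e-06). Of the other kinase subunit forms, *Phka2*, the liver α subunit, had differences of 0.33 (adjusted p = 0.0569) in KO minus WT diaphragm and 0.40 (adjusted p = 0.0254, called) in KO diaphragm minus KO gastrocnemius. *Phkg2*, the liver and testis γ subunit, was called in neither (0.25, adjusted p = 0.0533, and 0.12, adjusted p = 0.338). *Gys2*, the liver synthase, was also called in neither (0.09, 95% interval -0.25 to 0.43, and -0.01, 95% interval -0.34 to 0.33).

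**Figure D3:**
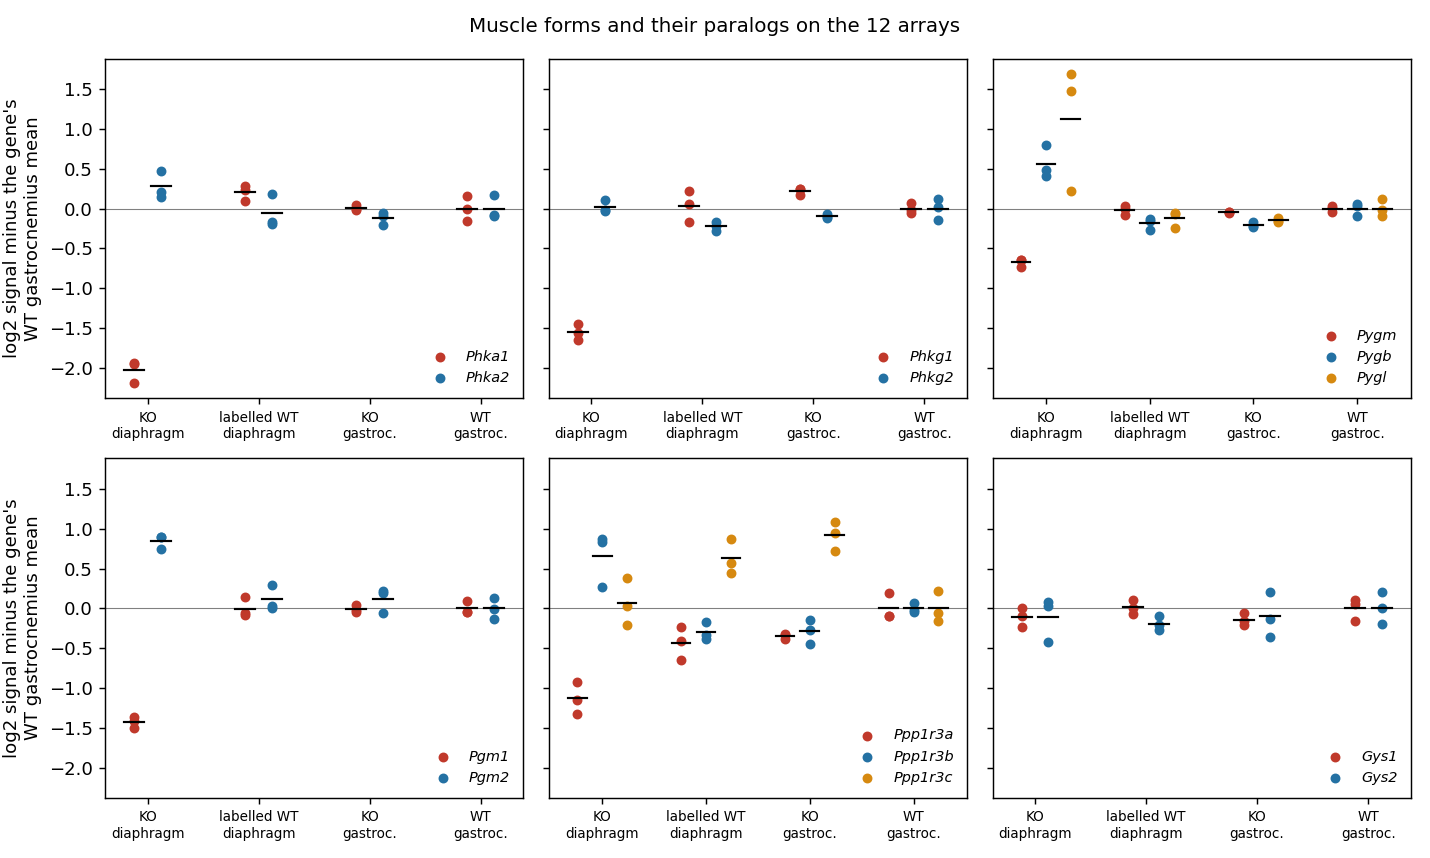
Log2 signal minus the same gene's mean in WT gastrocnemius (vertical axis) for muscle forms and their paralogs, by group (horizontal axis); points are arrays and black lines are means of 3. In KO diaphragm *Phka1*, *Phkg1*, *Pygm* and *Pgm1* lie below 0 and *Pygb*, *Pygl* and *Pgm2* above it. The 3 *Pygl* arrays spread from 6.22 to 7.69 in log2 signal before centring. *Pgm2l1*, which was lower in KO diaphragm, is not drawn.

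Of the other subunits that bring protein phosphatase 1 to glycogen, *Ppp1r3b* was higher and *Ppp1r3c* lower in KO diaphragm, and the rest were not called. *Ppp1r3b*, known mainly from liver, had log2 signals of 6.34, 6.29 and 5.72 in KO diaphragm, against 5.29, 5.13 and 5.08 on the arrays labelled WT diaphragm, 5.19, 5.31 and 5.01 in KO gastrocnemius, and 5.42, 5.53 and 5.43 in WT gastrocnemius. The KO diaphragm arrays were the highest of the 12. Its difference was 0.95 in KO minus WT diaphragm (SE 0.14, adjusted p = 0.000165) and 0.95 in KO diaphragm minus KO gastrocnemius (SE 0.14, adjusted p = 0.000157). *Ppp1r3c*, also called protein targeting to glycogen, had log2 signals of 10.67, 10.32 and 10.09 in KO diaphragm, against 10.75, 11.17 and 10.86 on the arrays labelled WT diaphragm, 11.01, 11.25 and 11.38 in KO gastrocnemius, and 10.13, 10.52 and 10.24 in WT gastrocnemius. Here KO diaphragm overlapped WT gastrocnemius, and every KO gastrocnemius array lay above both. The arrays labelled WT diaphragm overlapped KO gastrocnemius and lay above WT gastrocnemius without overlap. That difference between the 2 WT groups was 0.63, not called by limma (methods' t-test, unadjusted p = 0.0206). *Ppp1r3c* was the only gene called, of the 9 enzymes and 28 other genes of the pathway, between the genotypes in gastrocnemius, with 1.89-fold higher signals in KO (log2 difference 0.92, SE 0.16, adjusted p = 0.0205; 0.406% of all genes were called higher). The call was lost without KO gastrocnemius array 2 or 3 or WT gastrocnemius array 1 or 3, with adjusted p of 0.0623 to 0.102 and log2 differences of 0.83 to 0.90, and in the methods' t-test after adjustment (adjusted p = 0.23). In KO minus WT diaphragm *Ppp1r3c* was lower (-0.56, SE 0.16, adjusted p = 0.0156), a call lost without KO diaphragm array 3 (adjusted p = 0.0773) or WT diaphragm array 2 (adjusted p = 0.0721) and in the methods' t-test (unadjusted p = 0.0558, adjusted p = 0.164). In KO diaphragm minus KO gastrocnemius its difference was -0.85 (adjusted p = 0.000902), a call lost in the methods' t-test after adjustment (adjusted p = 0.0632). The KO effect differed between the muscles by -1.48 (SE 0.22, adjusted p = 0.000461). *Ppp1r3d* was not called in any comparison, with differences between -0.24 and 0.16, nor were *Ppp1r3e* (-0.32 to 0.08), *Ppp1r3f* (-0.26 to -0.00) and *Ppp1r3g* (-0.33 to 0.30). The stretch before the start of *Ppp1r3c*, at chr19:36736605-36736724 (minus strand), is shown because its E-box (capitals) is CACGTG, which none of the promoters of the 9 enzymes held and which 7.15% of all promoters held.
Ppp1r3c: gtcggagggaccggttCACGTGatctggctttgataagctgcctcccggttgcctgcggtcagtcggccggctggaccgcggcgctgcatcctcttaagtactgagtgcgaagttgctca

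Of 31 other genes of glycogen metabolism and its control, 28 had a value. In KO minus WT diaphragm 5 were higher and 10 lower, where 16.3% of all genes were higher and 11.2% lower (median -0.21, against -0.04 for all genes). In KO diaphragm minus KO gastrocnemius 6 were higher and 10 lower, where 17.7% of all genes were higher and 11.2% lower (median -0.16, against 0.02 for all genes). The shares called higher, 5 and 6 of 28, were near those of all genes. In KO minus WT gastrocnemius 1 was higher and 0 were lower, where 0.592% of all genes were called. At limma's unadjusted p under 0.05 there were 5, a threshold at which the share of all genes is not given here. The methods' t-test, unadjusted, called 13.6% of all genes. The median of the 28 was -0.02, against -0.01 for all genes. The test of the difference between the muscles called 5 more positive (8.76% of all genes) and 9 more negative (6.07% of all genes). Beside the genes already named, the largest differences in KO minus WT diaphragm were those of *Stbd1*, which tethers glycogen to membranes (-0.96 in KO minus WT diaphragm and -1.06 in KO diaphragm minus KO gastrocnemius), and *Gaa*, the lysosomal enzyme that breaks glycogen down (-0.81 and -0.64). *Epm2a*, the glycogen phosphatase laforin, differed by -0.48 in KO minus WT diaphragm (adjusted p = 0.00406) and by -0.76 in KO diaphragm minus KO gastrocnemius (adjusted p = 9.58e-05). *Gsk3a*, a kinase that inhibits glycogen synthase, depended on which arrays KO diaphragm was set against, with a called -0.66 against the arrays labelled WT diaphragm (adjusted p = 4.1e-05) and an uncalled -0.22 against KO gastrocnemius (adjusted p = 0.0629). It was also the only gene of the 28 called between the arrays labelled WT diaphragm and WT gastrocnemius (0.46, adjusted p = 0.0296; 0.296% of all genes were called higher), and that call was lost when any 1 of the 6 arrays was left out.

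**Figure D4:**
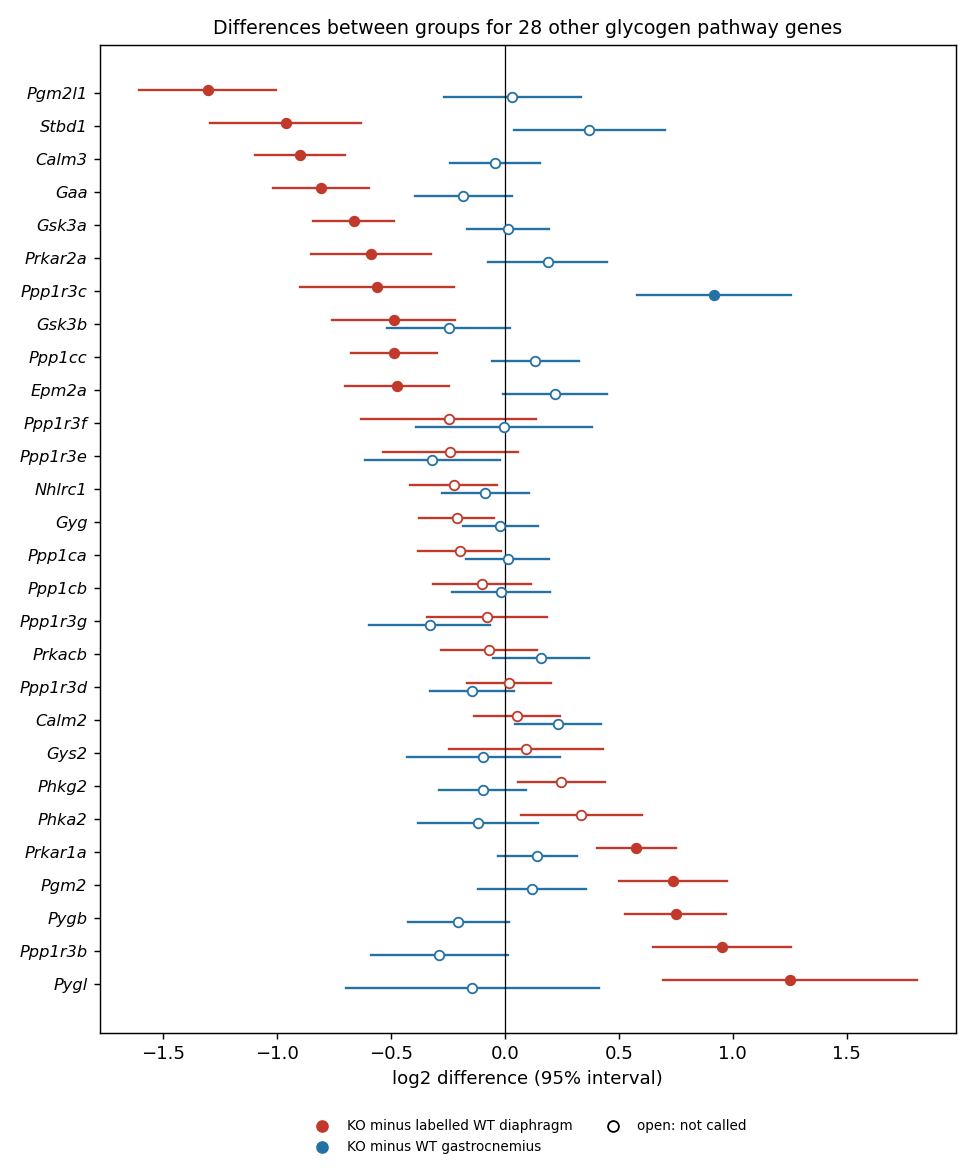
Log2 differences (horizontal axis) with 95% intervals for the 28 other genes of the glycogen pathway, ordered by KO minus labelled WT diaphragm (red), with KO minus WT gastrocnemius in blue; open points were not called. In diaphragm 10 genes were called lower and 5 higher, and in gastrocnemius only *Ppp1r3c* was called.

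Of 7 genes of glucose entry and early glycolysis, 6 had a value. In KO minus WT diaphragm 3 were lower and 0 higher, where 11.2% of all genes were lower and 16.3% higher. *Fbp2*, the muscle fructose-bisphosphatase, differed by -1.57 (SE 0.20, adjusted p = 4.55e-05), *Aldoa*, the muscle aldolase, by -0.41 (adjusted p = 0.00092) and *Pfkm*, the muscle phosphofructokinase, by -0.34 (adjusted p = 0.00843). In KO diaphragm minus KO gastrocnemius the differences were -1.64 for *Fbp2*, -0.46 for *Aldoa* and -0.35 for *Pfkm*, all called lower. *Slc2a4*, the insulin-responsive glucose transporter, had differences of 0.05 (95% interval -0.14 to 0.24) and 0.07 (95% interval -0.12 to 0.26) and was not called. In gastrocnemius limma called 0 of the 6, where 0.592% of all genes were called. Only *Fbp2* had an unadjusted p under 0.05 in limma (-0.69, adjusted p = 0.122), a threshold whose share of all genes is not given here. The methods' t-test, unadjusted, called 13.6% of all genes.

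Signals of fibre types and of other cell types moved with the enzymes. The marker counts stand beside 16.3% of all genes called higher and 11.2% lower in KO minus WT diaphragm, and 17.7% and 11.2% in KO diaphragm minus KO gastrocnemius. Genes of fast glycolytic fibres (8 genes) averaged 10.9 to 11.2 per array in KO diaphragm, against 13.1 to 13.2 on the arrays labelled WT diaphragm, 13.2 in KO gastrocnemius and 13.2 in WT gastrocnemius; 7 of 8 were lower in KO minus WT diaphragm and 7 of 8 in KO diaphragm minus KO gastrocnemius. Genes of slow fibres (8 genes) averaged 11.2 to 11.5 in KO diaphragm, against 9.41 to 10.2 on the arrays labelled WT diaphragm, 9.85 to 10.4 in KO gastrocnemius and 9.59 to 10.4 in WT gastrocnemius, with 8 of 8 higher in KO minus WT diaphragm and 7 of 8 in KO diaphragm minus KO gastrocnemius. Mesothelial markers were higher in 8 of 8 in both comparisons. Macrophage markers (9 with a value) averaged 8.14 to 8.70 in KO diaphragm, against 6.81 to 7.37 on the arrays labelled WT diaphragm, 6.86 to 7.10 in KO gastrocnemius and 7.15 to 7.53 in WT gastrocnemius, with 8 of 9 higher in the first of these comparisons and 9 of 9 in the second. Adipocyte markers (6 with a value) averaged 7.79, 8.82 and 7.15 on KO diaphragm arrays 1, 2 and 3, against 6.42 to 6.69 on the arrays labelled WT diaphragm, 6.51 to 6.86 in KO gastrocnemius and 6.95 to 7.59 in WT gastrocnemius, with 5 of 6 higher in both comparisons. On array 3, which had the lowest adipocyte and macrophage means of KO diaphragm, *Pygl* and *Ppp1r3b* were lowest as well. The same array was also lowest for *Pygb*. Among the enzymes and other pathway genes called lower in KO minus WT diaphragm, it was lowest for *Phka1*, *Ppp1r3c*, *Pgm2l1*, *Gaa* and *Stbd1*. It had the highest fast and slow fibre means (11.2 and 11.5), while the mesothelial mean was lowest on array 1 (7.78). This ordering of 3 arrays was not tested. Hepatocyte markers averaged 4.26 to 4.53 in KO diaphragm, against 4.43 to 4.47 on the arrays labelled WT diaphragm, 4.07 to 5.01 in KO gastrocnemius and 4.27 to 4.49 in WT gastrocnemius. In KO minus WT diaphragm limma called 0 of 5, with 0 at an unadjusted p under 0.05, and in KO diaphragm minus KO gastrocnemius it called 1 higher (*Cps1*, 0.36, adjusted p = 0.0329). Genes of skeletal muscle as a whole (8 genes) averaged 11.9 to 12.0 in KO diaphragm, against 12.1 to 12.2 on the arrays labelled WT diaphragm, 12.1 to 12.2 in KO gastrocnemius and 12.0 to 12.1 in WT gastrocnemius, with 1 higher and 4 lower in both comparisons. In gastrocnemius limma called 0 of these 39 fast fibre, slow fibre, mesothelial, macrophage and adipocyte markers between the genotypes, where 0.592% of all genes were called. Of the 39 markers, 5 had an unadjusted p under 0.05 in limma, a threshold whose share of all genes is not given here. The methods' t-test called 13.6% of all genes unadjusted and no gene at all after adjustment. Differences were negative for all 9 macrophage, 6 adipocyte and 8 mesothelial markers (medians -0.33, -0.47 and -0.20, against -0.01 for all genes). Of the 8 fast and 8 slow fibre markers, 5 and 4 were positive. The part of fibre type and of other cell types in the enzymes' differences was not tested.

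The likeness of the enzymes' patterns was described by the root mean square difference between their 4 group means, each gene centred on its own mean, on the log2 scale. Within the set, *Phka1* and *Phkb* were closest (0.080), followed by *Phkg1* and *Pgm1* (0.126), and *Phka1* and *Gbe1* were furthest apart (1.38). Among all 19938 genes, the nearest to *Phka1* were *Phkb* (0.080), *1700001O22Rik* (0.084) and *Pla2g7* (0.090). The nearest to *Phkb* were *Mybpc2* (0.041), a myosin-binding protein of fast fibres, *Myom2* (0.063), an M-band protein, and *Gadl1* (0.069). *Phkg1* was nearest to *Cdk19* (0.062), *Ube2d1* (0.065) and *Myoz1* (0.066), the last a Z-disc protein of fast fibres, and *Pgm1* to *Hoxc9* (0.029), a gene of hindlimb position, *Serpinb6a* (0.038) and *Casr* (0.039). *Gbe1* was nearest to *Slc6a4* (0.018), *Msn* (0.020) and *Cd36* (0.021), a fatty acid transporter of oxidative muscle, fat and macrophages. *Pygm* was nearest to *Cltb* (0.021), *Ubr3* (0.021) and *Prdm4* (0.023). *Ppp1r3a* was nearest to *Klhl21* (0.063), *Zcchc24* (0.065) and *Dusp27* (0.065). *Ugp2* and *Gys1*, whose group means differed little, had nearest genes within 0.006 and 0.005. Each of these patterns rests on 4 group means, which share the same 12 arrays.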

How the data were processed

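Total RNA of 12 muscle samples was hybridised to mouse Gene 1.0 ST arrays. Per the labels and the methods, the authors processed the scanner files with RMA (RMA sketch, standard settings of Affymetrix Expression Console; the version is not given in the sources used here), which corrects the background, normalizes between arrays and summarises each probe set. The deposited values are the resulting log2 signals, from 1.65 to 14.4. Arrays hold no read depth, and the median residual SD per gene was 0.138. Signals low in the range can be background, and since RMA normalizes between arrays, a shift shared by most genes can be lost or reduced.

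Of 35556 probe sets, 21789 had a single gene symbol, 1621 had several and 12146 were not listed in the annotation; the last 2 kinds were not used. Where several probe sets shared a gene (999 genes), the brightest was kept, which left 19938 genes. In R 4.3.3, limma 3.58.1 (lmFit, eBayes) fitted a mean for each of the 4 groups without covariates (8 residual and 6.18 prior degrees of freedom), with 5 contrasts: KO minus WT in diaphragm, KO minus WT in gastrocnemius, the difference between these, KO diaphragm minus KO gastrocnemius, and the arrays labelled WT diaphragm minus WT gastrocnemius. Each contrast was adjusted on its own with Benjamini-Hochberg. The fit was tested on simulated data before use. No 2 arrays held the same values (correlations of at most 0.995).

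All 9 members are named. Of 31 other pathway genes, 9 paralogs of members (*Phka2*, *Phkg2*, *Pygb*, *Pygl*, *Pgm2*, *Gys2*, *Ppp1r3b*, *Ppp1r3c* and *Ppp1r3d*) are named always and of the rest up to 4 called with the largest difference per comparison; *Ppp1r3e*, *Ppp1r3f*, *Ppp1r3g*, *Calm2*, *Gsk3a*, *Slc2a4* and *Cps1* were added after their values were seen. The members and all lists were chosen with earlier results of these data known. Sequences and promoter windows are from RefSeq for GRCm38.p6, matched by symbol for all 9 genes and *Ppp1r3c*; its annotation was used otherwise for names and chromosomes. Alternatives were median centring, quantile normalization, eBayes with trend and robust, a filter on low signals, the mean of probe sets per gene, each muscle fitted alone, leaving the arrays labelled WT diaphragm out of the fit, the methods' t-test, a replicate block (fixed, or random with statmod 1.5.0) and leaving out each array in turn.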

Additional observations from a re-analysis of the deposited data

Results flagged for a closer look

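Of the 9 enzymes and 28 other genes of the pathway, limma's test called a different KO effect in diaphragm and gastrocnemius for 20. Over all genes, 8.76% were called more positive in diaphragm and 6.07% more negative. All of these results use the arrays labelled WT diaphragm. Values are the log2 difference KO minus WT in diaphragm, minus the same in gastrocnemius. Among the 9 enzymes they were -2.24 for *Phka1*, -2.05 for *Phkb*, -1.81 for *Phkg1*, -1.42 for *Pgm1*, -0.61 for *Pygm* and 1.00 for *Gbe1*. Among the paralogs and related enzymes they were 0.96 for *Pygb*, 1.40 for *Pygl*, 0.62 for *Pgm2* and -1.34 for *Pgm2l1*. Among the phosphatase subunits they were 1.24 for *Ppp1r3b*, -1.48 for *Ppp1r3c* and -0.62 for *Ppp1cc*, a catalytic subunit. For genes of glycogen turnover they were -0.62 for *Gaa*, -0.69 for *Epm2a* and -1.33 for *Stbd1*. For genes of signalling to the enzymes they were -0.68 for *Gsk3a*, -0.86 for *Calm3*, 0.43 for *Prkar1a* and -0.78 for *Prkar2a*, the last 2 being regulatory subunits of the cAMP-dependent protein kinase. Of these, *Ppp1r3c* was called in both muscles in opposite directions, and the other 19 were called in diaphragm only. Groups of 3 arrays were not tested for single outlying arrays.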

How the results depend on the processing

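No result for the enzymes changed direction while called under any alternative, and the member counts were the same without each array in turn and with the replicate block, fixed or random. The methods' t-test without adjustment gave 1 enzyme higher (*Phkg1*) and 1 lower (*Ppp1r3a*) in KO minus WT gastrocnemius, and after adjustment it lost *Ppp1r3a* in KO minus WT diaphragm (adjusted p = 0.0788). The median difference of the 9 enzymes between the muscles' KO effects was -0.74 with median centring and -0.47 with quantile normalization, and in KO diaphragm minus KO gastrocnemius it was -0.91 with median centring. Leaving out 1 array, the medians ranged from -0.81 to -0.63 in KO minus WT diaphragm, -0.89 to -0.68 in KO diaphragm minus KO gastrocnemius, -0.64 to -0.58 between the KO effects, -0.04 to -0.00 in KO minus WT gastrocnemius and -0.04 to 0.04 between the arrays labelled WT diaphragm and WT gastrocnemius. Of the 28 other pathway genes, 0 to 1 stayed called higher in KO minus WT gastrocnemius without 1 array, and 0 in each case between the arrays labelled WT diaphragm and WT gastrocnemius, where quantile normalization also gave 0.

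The methods name no pairing of the arrays. Deviations of same-numbered arrays correlated at -0.07 to 0.148, and the random replicate block had a consensus correlation of -0.0343. These values cannot show whether same-numbered arrays of a genotype came from the same mouse, and the block also joined KO and WT arrays. With the block, the counts of enzymes were 6 lower and 1 higher in KO minus WT diaphragm and 0 of either in KO minus WT gastrocnemius. The scaling set the balance of calls over all genes. Of the genes called, 59.3% were higher in KO minus WT diaphragm, 41% with median centring and 49.6% with quantile normalization; 61.3%, 35.6% and 49.7% were higher in KO diaphragm minus KO gastrocnemius; 59.1%, 34.8% and 51.6% between the KO effects; and 68.6%, 86.6% and 68.1% in KO minus WT gastrocnemius. Median centring moved the median of all genes to -0.11 in KO diaphragm minus KO gastrocnemius and to -0.13 between the KO effects, and calls of *Phka1*, *Phkb*, *Phkg1*, *Pgm1*, *Pygm* and *Gbe1* held under it. With 3 arrays a group, the 95% intervals of the enzymes in gastrocnemius reached from -0.62 (*Ppp1r3a*) to 0.44 (*Phkg1*).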
